A study of Homo sapiens with 6 samples.

Results

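The genes described here are 39 members of the lysosomal system, taken as a fixed list of symbols from the 21676 gene symbols of the deposited count table. They are 11 cathepsins, 8 glycosidases, 4 sulfatases, 6 other hydrolases and cofactors, 7 membrane proteins and 3 regulators. RNA sequencing measured them in the 83 cell line, labelled a SACC cell, an abbreviation that usually means salivary adenoid cystic carcinoma. The groups were 3 libraries labelled as control (NC-1 to NC-3) and 3 libraries labelled as overexpression of ApoD (OE-1 to OE-3), where ApoD is apolipoprotein D, a lipid-carrying lipocalin found outside the cell. How ApoD was introduced, what the control cells carried, whether the cells were a clone or a pool, and the time in culture are not given in the labels. The labels do not say that libraries of 1 group came from separate cultures, so p-values here reflect only library-to-library spread, which may be technical.

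Lysosomes are acidic organelles that break down proteins, glycans and lipids delivered by endocytosis and autophagy. Most of their soluble enzymes carry a mannose 6-phosphate tag that a receptor recognises in the Golgi, and a proton pump, the V-ATPase, keeps the lumen acidic so that they work. Highly glycosylated membrane proteins such as LAMP1 line the inner face of the membrane, and the transcription factors TFEB and TFE3 bind E-box motifs upstream of many lysosomal genes when nutrients are scarce or lysosomes are under strain. Carcinoma cells also secrete cathepsins, which cut extracellular matrix.

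With ApoD overexpression the 3 soluble members with the highest length-scaled level in controls were lower. Of the 7 membrane proteins 3 were higher and 2, LAMP2 and LAMP3, were lower, and the autophagy transcript SQSTM1 was higher. CTSD, PSAP and CTSB, which encode cathepsin D, prosaposin and cathepsin B, fell 1.55-fold, 1.65-fold and 1.67-fold. Here rose and fell mean an edgeR adjusted p under 0.05 with 3 libraries a group. CTSZ, a cathepsin just below CTSB in length-scaled level in controls, did not pass that threshold (log2 fold change −0.07). SQSTM1, MCOLN1 and LAMP1, which encode an autophagy receptor, a lysosomal calcium channel and a membrane glycoprotein, rose 1.91-fold, 1.48-fold and 1.40-fold. TFEB itself did not pass, with 12.6, 17.8 and 13.6 CPM in the controls and 12.8, 13.9 and 15.3 CPM with ApoD overexpression. CPM are counts per 1000000 of the scaled library, and FPKM, used below to compare genes, also divide by gene length.

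Promoter stretches of 6 changed members are shown because they carry the core E-box CACGTG, the sequence that TFEB and TFE3 recognise, and because they moved in both directions. The stretches come from RefSeq on GRCh38.p14 and cover the motif copies of a promoter with 12 bases on either side, except that the LAMP1 stretch ends 5 bases after its last copy, 10 bases past the annotated start. Each is written 5′ to 3′ on the gene's strand, and capitals mark every CACGTG. LAMP1, MCOLN1 and ARSB rose, and CTSD, GAA and CTSF fell.
LAMP1: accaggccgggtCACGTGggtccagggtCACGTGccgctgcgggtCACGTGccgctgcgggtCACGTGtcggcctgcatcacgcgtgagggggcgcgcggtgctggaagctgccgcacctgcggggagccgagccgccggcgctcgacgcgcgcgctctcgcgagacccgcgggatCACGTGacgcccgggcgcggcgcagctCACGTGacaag
MCOLN1: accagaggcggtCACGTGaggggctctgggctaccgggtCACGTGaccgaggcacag
ARSB: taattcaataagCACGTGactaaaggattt
CTSD: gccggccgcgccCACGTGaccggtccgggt
GAA: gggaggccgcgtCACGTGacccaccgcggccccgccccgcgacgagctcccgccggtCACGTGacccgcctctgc
CTSF: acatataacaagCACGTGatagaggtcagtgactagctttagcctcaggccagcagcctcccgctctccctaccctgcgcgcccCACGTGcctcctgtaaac
The LAMP1 stretch (chr13:113297035-113297248, plus strand) holds 6 copies, of which 4 lie 192 to 142 bases before the annotated start and the last spans the start itself. MCOLN1 (chr19:7522571-7522627, plus strand) and GAA (chr17:80101493-80101567, plus strand) hold 2 copies each, the MCOLN1 copies beginning 41 and 14 bases and the GAA copies 76 and 31 bases before the start. CTSD (chr11:1763957-1763986, minus strand) and ARSB (chr5:78986101-78986130, minus strand) hold 1 copy each, and CTSF (chr11:66568640-66568741, minus strand) holds 2. RefSeq promoter windows, 250 bases before to 50 bases after a start, were matched by symbol for 29 of the 39 members; ARSA, CTSB, CTSK, CTSS, LAMP2, LAMP3, MANBA, NAGLU, PSAP and SGSH were not matched. A gene with more than 1 window counted as holding a motif if any of them did. This applied to 6 of the 29 matched members, and the number of such genes in the backgrounds is not given here. CACGTG, which reads the same on both strands, was present for 9 of the 29 members, 31.0%, against 8.77% of 27305 RefSeq genes and 12.2% of the 11490 tested genes with a window. The longer form TCACGTG, searched on both strands and overlapping the core, was present for 8 of the 29, 27.6%, against 4.49% of all RefSeq genes and 6.98% of the tested genes with a window. Among matched members the core was found for 3 of 8 that rose, 3 of 8 that fell and 3 of 12 that did not pass the test, the last being CD63, CTSA and NEU1; the matched window of CTSH, which was not tested, held none. A match in these letters is a description of the sequence and not a measured binding site.

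APOD, a check of the labels, had 9, 8 and 2 counts in control libraries and 628, 528 and 625 counts in ApoD overexpression libraries (log2 fold change 6.63, SE 0.29, and edgeR adjusted p = 6.31e-08). Totals ran from 37542568 to 40416964 counts per library. Among the controls, replicate 1 lay nearest to the other group on the first principal component, and libraries of 1 group differed by more than sampling noise, with a chi-square per degree of freedom of 12.2 to 42.3. Genes with at least 1 count numbered 18591 to 18685 in controls and 17378 to 17789 with ApoD overexpression, and mitochondrially encoded genes took 4.10% to 4.50% and 3.19% to 3.54% of the counts; the part of either in the results below was not tested. All 8 epithelial markers were detected, with a summed level of 3102 to 4151 CPM in controls and 3605 to 4096 CPM with ApoD overexpression. Of these 8, 1 rose and 4 fell, a called share of 62.5% against 48.8% of all tested genes. KRT7 rose (0.48 ± 0.14 on the log2 scale ± SE). CDH1, KRT19, TP63 and EPCAM fell (−1.29 ± 0.11, −2.46 ± 0.36, −1.05 ± 0.13 and −0.30 ± 0.09). KRT8, KRT18 and KRT5 did not pass, with log2 fold changes of 0.37 ± 0.15, 0.24 ± 0.12 and −0.25 ± 0.10. Of 14 macrophage and dendritic cell markers 11 were in the table and 3 were abundant enough to test, with a summed level of 19.5 to 20.9 CPM and 22.0 to 24.1 CPM. Most of that sum was CD83, which rose by 0.46 ± 0.12. The other tested markers, CSF1R and ITGAX, did not pass, with log2 fold changes of −0.50 ± 0.21 and −0.65 ± 0.55, and the median of the 3 was −0.50. The 8 untested markers, PTPRC, CD14, ITGAM, CD163, FCER1G, LYZ, SPI1 and CCR7, had between 0 and 17 counts in each library. In bulk RNA, fewer cells of a type and less RNA per cell cannot be told apart.

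The question was which lysosomal transcripts changed when ApoD was overexpressed. Of the 39 members 38 were abundant enough to test, the exception being CTSH. Of these, 8 rose and 14 fell with an edgeR adjusted p under 0.05, and 16 did not pass. The called share was 57.9% against 48.8% of all 14629 tested genes, of which 24.2% rose and 24.6% fell. By class it was 60% of cathepsins, 25% of glycosidases and 75% of sulfatases. It was 71.4% of membrane proteins and 66.7% of each of the other classes, with 3 to 10 tested members a class. Calls were more frequent among abundant genes, and 31 members averaged at least 1000 counts per library. Of these 31, 7 rose (22.6%) and 11 fell (35.5%), where 37.5% and 17.8% of all 7070 genes of that abundance did. In either direction 55.3% of those 7070 genes were called, so the members' called share lay near that of abundant genes. The 3 libraries of one group lay wholly apart from those of the other for 27 of the 38 tested members, 71.1%, against 58.7% of all tested genes. ApoD overexpression lay below in 16 of them and above in 11, against backgrounds of 29.7% and 29.0%. Without control replicate 2, 9 members fell in place of 14, and 2764 of 14909 tested genes fell in place of 3601. The median log2 fold change of the tested members was −0.10, beside −0.02 for all tested genes and 0.14 for all genes of that higher abundance.

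Among members 3, CTSF, CTSV and LAMP3, fell more than 2-fold and 0 rose more than 2-fold, where 11.5% and 2.84% of all tested genes did so. The calls of 13 members held in each of the 12 to 15 alternative fits that tested them. These were the falls of CTSB, CTSD, CTSF, CTSV, GAA, ARSA, PSAP, GM2A and LAMP3 and the rises of ARSB, LAMP1, MCOLN1 and SQSTM1. The other 9 calls were lost in some of 15 alternatives: those of CTSC and MAN2B1 were kept in 14, LIPA in 11, LAMP2 in 10, CTSL in 9, CD68 in 8, SGSH in 7, TFE3 in 6 and TPP1 in 3. Scaling by library totals alone moved the median of all tested genes to −0.13, and under it 5 members rose and 17 fell. Removing each library's trend with abundance left 4 rises and 16 falls. Summed over the 39 members, the level was 6675, 7700.4 and 7133 CPM in the controls against 6359, 6402 and 6208 CPM in the ApoD overexpression libraries. Without CTSB, CTSD and PSAP, left out after their values were seen, the sums were 3753, 3988 and 3795 against 4248, 4345 and 4217 CPM, so the order of the groups was the opposite.

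**Figure D1:**
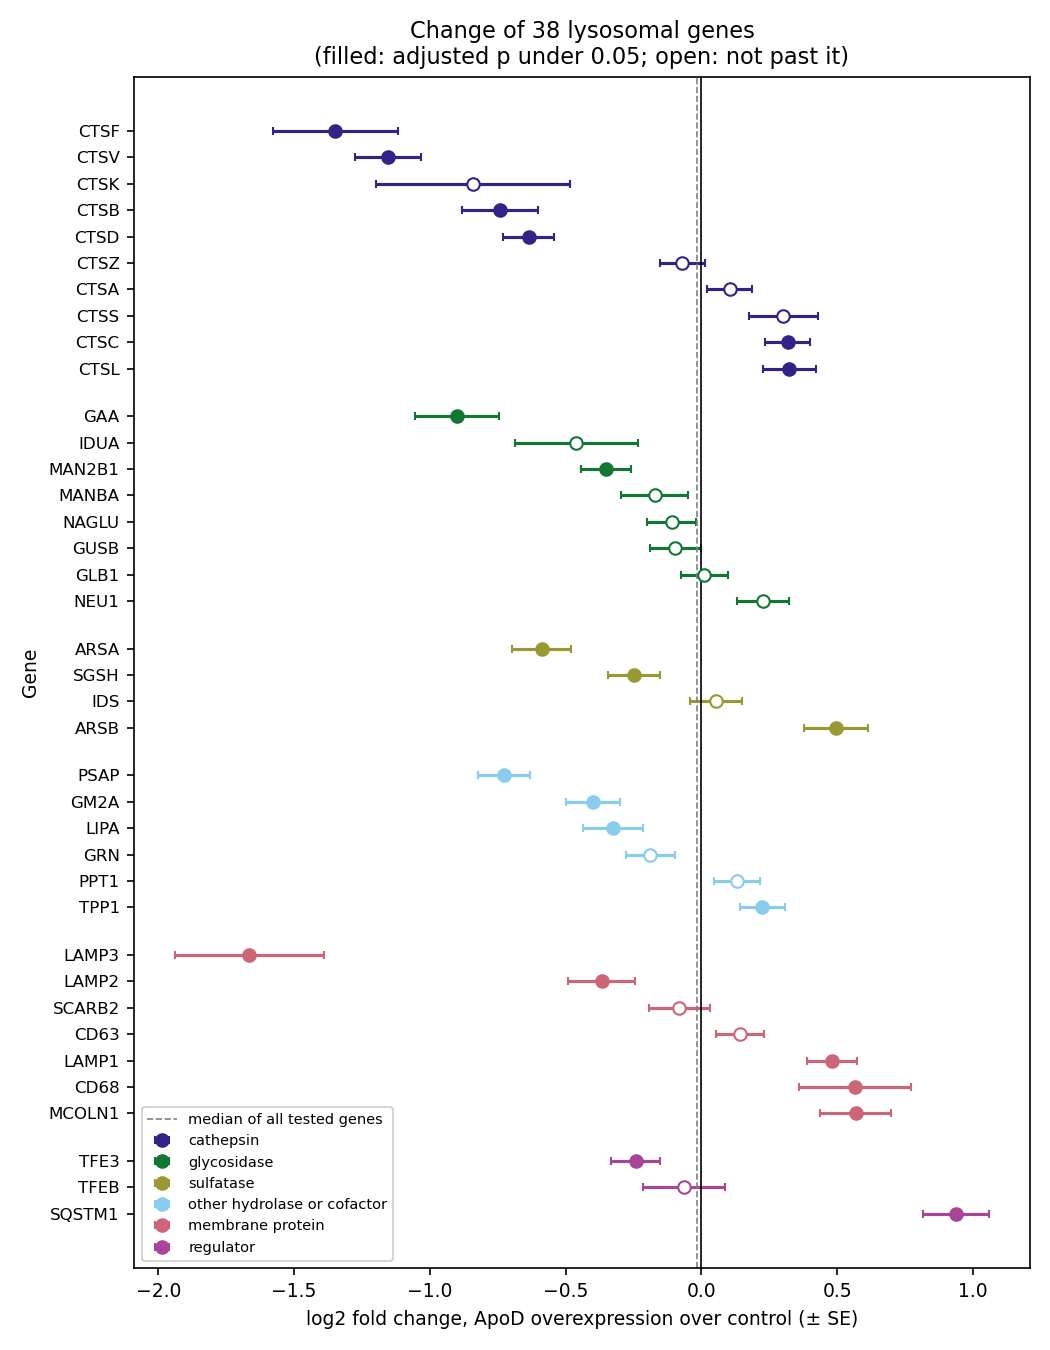
Log2 fold change of each of the 38 tested lysosomal genes, ApoD overexpression over control (x axis), with its standard error, grouped by class. Filled points passed an edgeR adjusted p of 0.05 (8 higher and 14 lower), open points did not, and the dashed line is the median of all tested genes at −0.02; LAMP3 is farthest to the left and SQSTM1 farthest to the right.

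Cathepsins are the lysosomal proteases, most of them cysteine proteases. Of 10 tested members 4 fell and 2 rose, with a median log2 fold change of −0.35. CTSD, the main aspartic protease of the lysosome, had the highest length-scaled level of all members, 626 ± 58.1 FPKM in controls and 371 ± 19.7 FPKM with ApoD overexpression (SD, n = 3). Per library it had 1143, 1361 and 1201 CPM in the controls and 828, 800.03 and 757 CPM with ApoD overexpression (log2 fold change −0.64, SE 0.09, and edgeR adjusted p = 0.000191). Every ApoD overexpression library lay below every control. CTSB, an abundant cysteine protease that tumour cells also secrete, had 551, 847 and 839 CPM in the controls and 455, 448 and 436 CPM with ApoD overexpression (log2 fold change −0.74, SE 0.14, and edgeR adjusted p = 0.00105). The groups did not overlap, and control replicate 1 lay well below the other controls; without it the log2 fold change was −0.91.

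The strongest cathepsin falls were in less abundant genes. CTSV, an epithelial relative of cathepsin L, had 27.1, 32.5 and 32.7 CPM in the controls and 15.1, 12.5 and 14.0 CPM with ApoD overexpression (log2 fold change −1.15, SE 0.12, and edgeR adjusted p = 2.05e-05). CTSF had 4.81, 6.47 and 6.33 CPM in the controls and 2.34, 1.80 and 2.77 CPM with ApoD overexpression (log2 fold change −1.35, SE 0.23, and edgeR adjusted p = 0.000508), from 194 to 265 counts per control library and 64 to 106 with ApoD overexpression. Neither gene had overlapping groups. CTSL, the general cysteine protease closest in sequence to CTSV, moved the other way, with 159, 175 and 199 CPM in the controls and 224, 228 and 213 CPM with ApoD overexpression (log2 fold change 0.32, SE 0.10, and edgeR adjusted p = 0.0163). CTSL has pseudogenes and CTSV is similar in sequence, so their counts can share reads. Leaving out control replicate 2 ended the CTSL call (adjusted p = 0.0647; range over the 15 alternatives 0.00675 to 0.354). That call was also lost with library totals, with the abundance trend removed, among genes averaging at least 500 counts and in each fit on FPKM.

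CTSC, a dipeptidyl peptidase that activates serine proteases of immune granules, rose from 244 ± 7.48 to 304 ± 9.30 CPM, as mean ± SD of 3 libraries (log2 fold change 0.32, SE 0.08, and edgeR adjusted p = 0.00721). With the abundance trend removed this call was lost (adjusted p = 0.250; range over the alternatives 0.00141 to 0.250). The remaining cathepsins did not pass. CTSA, a carboxypeptidase that shields beta-galactosidase and sialidase, had a log2 fold change of 0.10 ± 0.08, CTSZ of −0.07 ± 0.08, CTSS of 0.30 ± 0.13 and CTSK of −0.84 ± 0.36. CTSK, the collagen-degrading protease of osteoclasts, was scarce, with 65, 63 and 65 counts in control libraries and 44, 20 and 36 counts in ApoD overexpression libraries. CTSH had only 2, 20 and 9 counts in control libraries and 1, 1 and 0 counts in ApoD overexpression libraries. The control to ApoD overexpression ratio was 14.3 (95% interval 3.64 to 123, counting error only). Summed over the 11 cathepsins, the level was 2614, 3199 and 2996 CPM in the controls and 2347, 2314 and 2218 CPM with ApoD overexpression, so the groups did not overlap. CTSD and CTSB supplied most of that sum.

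**Figure D2:**
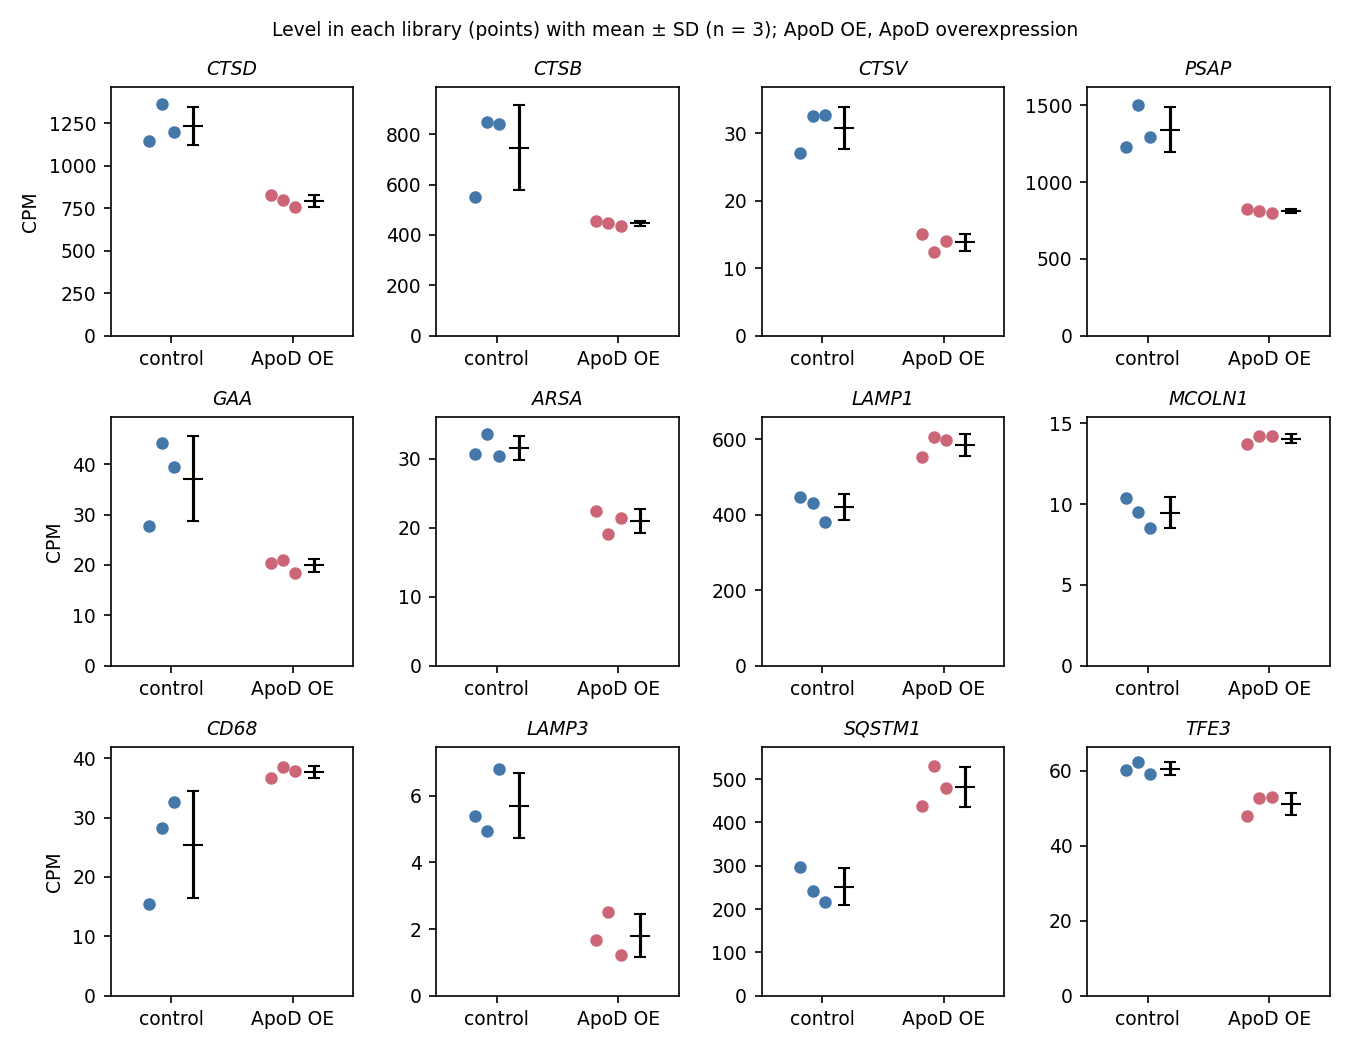
CPM in each library (points) with the mean and SD (n = 3) for 12 members, control on the left and ApoD overexpression on the right of each panel, with axes that start at 0. All 12 are called members picked for display, and the groups do not overlap in any panel. Over all 38 tested members the groups were apart for 27 (71.1%), against 58.7% of all tested genes. Control replicate 1 is the lowest control for CTSB (551 CPM), CTSD, CTSV, PSAP, GAA and CD68. It is the highest control for LAMP1, MCOLN1 and SQSTM1.

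Glycosidases cut sugars from glycogen, glycoproteins and glycosaminoglycans. Of 8 members 2 fell, 0 rose and 6 did not pass, with a median log2 fold change of −0.14. GAA, the acid glucosidase that degrades glycogen, had 27.8, 44.2 and 39.4 CPM in the controls and 20.3, 20.9 and 18.5 CPM with ApoD overexpression (log2 fold change −0.90, SE 0.15, and edgeR adjusted p = 0.000521). All 3 ApoD overexpression libraries were below the controls, of which replicate 1 was the lowest. MAN2B1, which trims mannose from glycoproteins, had 72.8, 84.1 and 82.7 CPM in the controls and 62.0, 62.3 and 63.7 CPM with ApoD overexpression (log2 fold change −0.35, SE 0.09, and edgeR adjusted p = 0.00773). The groups were apart, but leaving out control replicate 2 ended the call (adjusted p = 0.0512; range over the alternatives 0.00135 to 0.0512).

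The other glycosidases had log2 fold changes between −0.46 ± 0.23 (IDUA) and 0.23 ± 0.10 (NEU1) and did not pass. IDUA acts on dermatan and heparan sulfate, and NEU1 is the lysosomal sialidase; NEU1 had 48.0, 52.7 and 50.1 CPM in the controls and 60.0, 62.8 and 53.9 CPM with ApoD overexpression (edgeR adjusted p = 0.0672). GLB1, the beta-galactosidase used as a senescence stain, had nearly equal levels, 84.7 ± 4.73 CPM in controls and 85.3 ± 1.54 CPM with ApoD overexpression (SD, n = 3), and GUSB, MANBA and NAGLU had log2 fold changes of −0.10 ± 0.09, −0.17 ± 0.12 and −0.11 ± 0.09. GUSB has many pseudogenes that can share its reads.

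Sulfatases remove sulfate from glycosaminoglycans and sulfolipids. Of 4 members 2 fell and 1 rose. ARSA, which acts on the myelin lipid sulfatide, had 30.7, 33.5 and 30.4 CPM in the controls and 22.5, 19.0 and 21.4 CPM with ApoD overexpression (log2 fold change −0.59, SE 0.11, and edgeR adjusted p = 0.000888). ARSB, which acts on dermatan and chondroitin sulfate, had 32.7, 27.0 and 25.7 CPM in the controls and 36.5, 40.8 and 43.2 CPM with ApoD overexpression (log2 fold change 0.50, SE 0.12, and edgeR adjusted p = 0.00461). The groups did not overlap for either gene, and the directions were opposite. SGSH, the heparan N-sulfatase, was at the edge of the threshold, with 52.6, 55.7 and 61.0 CPM in the controls and 47.7, 49.8 and 45.2 CPM with ApoD overexpression (log2 fold change −0.25, SE 0.10, and edgeR adjusted p = 0.0496). The SGSH call was lost without control replicate 2 or 3 or ApoD overexpression replicate 1 or 3 (adjusted p of 0.119, 0.257, 0.149 and 0.243; range over the alternatives 0.0103 to 0.257). It was also lost with DESeq2 size factors, the DESeq2 Wald test, no low-count filter or the replicate number as a block. IDS, which removes sulfate from iduronate and has a pseudogene, did not pass (log2 fold change 0.05 ± 0.10).

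Among the other hydrolases and their helper proteins 3 of 6 fell and 1 rose. PSAP encodes the precursor of the saposins, small proteins that present sphingolipids to their hydrolases. Its level, 507 ± 55.0 FPKM in controls and 283 ± 8.43 FPKM with ApoD overexpression (SD, n = 3), was second to that of CTSD in both groups. Per library PSAP had 1227, 1505 and 1297 CPM in the controls and 828, 809.9 and 799 CPM with ApoD overexpression (log2 fold change −0.73, SE 0.10, and edgeR adjusted p = 8.72e-05). GM2A, the activator that lifts ganglioside GM2 from the membrane, had 47.8, 58.1 and 53.9 CPM in the controls and 39.8, 41.1 and 40.2 CPM with ApoD overexpression (log2 fold change −0.40, SE 0.10, and edgeR adjusted p = 0.00592). For both activator genes every ApoD overexpression library was below every control.

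LIPA, the acid lipase that frees cholesterol from lipoprotein esters, had 106, 133 and 134 CPM in the controls and 106, 101 and 91.1 CPM with ApoD overexpression (log2 fold change −0.33, SE 0.11, and edgeR adjusted p = 0.0268). Its groups overlapped, because control replicate 1 lay just below the highest ApoD overexpression library. The LIPA call was lost without control replicate 2 or 3 or ApoD overexpression replicate 3 (adjusted p of 0.123, 0.123 and 0.146; range over the alternatives 0.00303 to 0.146). It was also lost with the replicate number as a block. TPP1, a tripeptidyl peptidase, had 222, 236 and 232 CPM in the controls and 272, 257 and 277 CPM with ApoD overexpression (log2 fold change 0.22, SE 0.08, and edgeR adjusted p = 0.0407). The TPP1 call held without ApoD overexpression replicate 2 but was lost without any other single library (adjusted p of 0.0756 to 0.150; range over the alternatives 0.0243 to 0.833). It was also lost with library totals, the abundance trend removed, no low-count filter or the replicate number as a block. Genes averaging at least 500 counts and each fit on FPKM gave no TPP1 call either. PPT1, which removes palmitate from proteins, and GRN, which encodes progranulin, did not pass, with log2 fold changes of 0.13 ± 0.08 and −0.19 ± 0.09. GRN passed as lower in 6 of the 15 alternatives, among them library totals, removal of the abundance trend and the fit without control replicate 1.

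**Figure D3:**
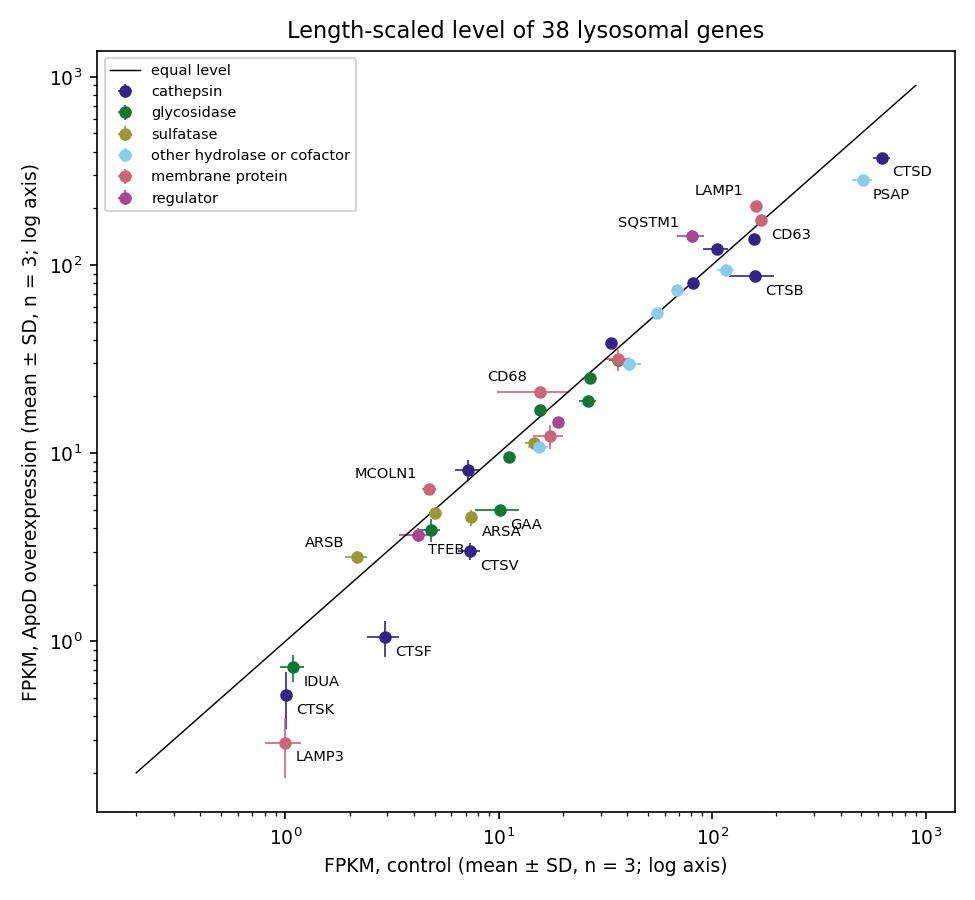
Length-scaled level of 38 lysosomal genes (CTSH, with at most 20 counts in a library, is left out): mean FPKM in controls (x axis) and with ApoD overexpression (y axis), both log axes, with SD over 3 libraries and the line of equal level. CTSD and PSAP have the highest level in both groups and lie below the line, SQSTM1 and LAMP1 lie above it, and LAMP3, CTSK and CTSF lie below it at the low end.

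Of the 7 membrane proteins 3 rose and 2 fell, with a median log2 fold change of 0.14 that was 0.02 under library totals and −0.06 once the abundance trend was removed. LAMP1, the main glycoprotein of the lysosomal membrane, had 446, 431 and 380.00 CPM in the controls and 552, 605 and 598 CPM with ApoD overexpression (log2 fold change 0.48, SE 0.09, and edgeR adjusted p = 0.00114). LAMP2, its relative with a role in autophagy, had 130.2, 165 and 172 CPM in the controls and 138, 107 and 117 CPM with ApoD overexpression (log2 fold change −0.37, SE 0.12, and edgeR adjusted p = 0.0278). LAMP1 groups were apart and LAMP2 groups overlapped, and the directions of the pair were opposite. The LAMP2 call was lost without control replicate 2 or 3 or ApoD overexpression replicate 2 or 3 (adjusted p of 0.111, 0.107, 0.0872 and 0.0808; range over the alternatives 0.00184 to 0.111). It was also lost with the replicate number as a block. LAMP3, a family member of dendritic cells and of some carcinomas, had the largest fall among members, with 5.38, 4.93 and 6.81 CPM in the controls and 1.68, 2.51 and 1.23 CPM with ApoD overexpression (log2 fold change −1.66, SE 0.27, and edgeR adjusted p = 0.0004). It was scarce, with 202 to 282 counts per control library and 47 to 89 with ApoD overexpression.

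MCOLN1, the calcium channel TRPML1 of the lysosomal membrane, had 10.4, 9.52 and 8.50 CPM in the controls and 13.7, 14.2 and 14.2 CPM with ApoD overexpression (log2 fold change 0.57, SE 0.13, and edgeR adjusted p = 0.00368), and its groups were apart. CD68, a LAMP family protein best known as a macrophage marker, had 15.4, 28.2 and 32.7 CPM in the controls and 36.6, 38.5 and 37.8 CPM with ApoD overexpression (log2 fold change 0.57, SE 0.21, and edgeR adjusted p = 0.0384). Control replicate 1 had the lowest CD68 level of all libraries; without it the log2 fold change was 0.31. The CD68 call was lost without control replicate 2 or ApoD overexpression replicate 2 (adjusted p of 0.0561 and 0.104; range over the alternatives 0.000888 to 0.126). It was also lost with library totals, with the abundance trend removed, among genes averaging at least 500 counts and in each fit on FPKM. Of the 3 tested macrophage and dendritic cell markers given above only CD83 rose. CSF1R and ITGAX had negative log2 fold changes that did not pass, and the 8 untested markers had between 0 and 17 counts in each library. The part of cell type in the CD68 change was not tested. CD63, a tetraspanin of lysosomes and exosomes, had 338, 343 and 313 CPM in the controls and 365, 391 and 341 CPM with ApoD overexpression (log2 fold change 0.14, SE 0.09, and edgeR adjusted p = 0.207). CD63 did not pass and its groups overlapped, as did those of SCARB2, which carries glucocerebrosidase to the lysosome (log2 fold change −0.08 ± 0.11). Summed over the 7 genes the level was 1087 to 1152 CPM in controls and 1261 to 1296 CPM with ApoD overexpression. LAMP1, with a mean of 419 CPM in controls and 585 CPM with ApoD overexpression, supplied nearly all of that difference.

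**Figure D4:**
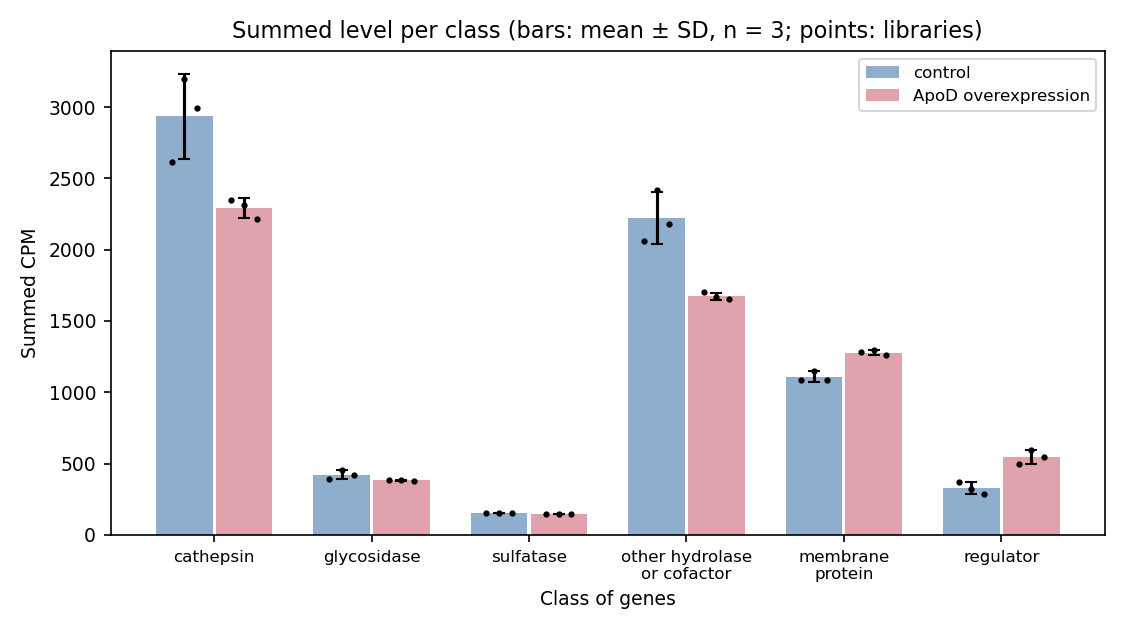
Summed CPM of the members of each class (y axis, from 0) in each library (points), with bars for the mean and SD over 3 libraries of control and of ApoD overexpression. The cathepsin sum is 2936 in controls and 2293 CPM with ApoD overexpression, and the membrane protein sum is 1109 and 1279 CPM. LAMP1 supplies nearly all of the membrane protein difference, with means of 419 and 585 CPM.

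Of the 3 regulators SQSTM1 rose and TFE3 fell. SQSTM1 encodes the receptor that brings ubiquitinated cargo into autophagosomes, and it had 298, 243 and 215 CPM in the controls and 437, 529.5 and 480.1 CPM with ApoD overexpression (log2 fold change 0.94, SE 0.12, and edgeR adjusted p = 8.17e-05). It had the largest rise among members, and in length-scaled level it went from 80.2 ± 11.9 to 142 ± 11.5 FPKM (SD, n = 3), from rank 10 to rank 5 of the 39 members. TFE3, a transcription factor of lysosomal genes, had 60.3, 62.3 and 59.0 CPM in the controls and 47.8, 52.7 and 53.1 CPM with ApoD overexpression (log2 fold change −0.24, SE 0.09, and edgeR adjusted p = 0.0434). The TFE3 call held without ApoD overexpression replicate 2 but was lost without any other single library (adjusted p of 0.0863 to 0.222; range over the alternatives 0.00393 to 0.222). It was also lost with DESeq2 size factors, the DESeq2 Wald test, no low-count filter or the replicate number as a block. TFEB, its relative, had a log2 fold change of −0.06 ± 0.15 (edgeR adjusted p = 0.746), and its groups overlapped.

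A further list held 26 genes that act on TFEB and TFE3 or belong to their family. Many of them are in the kinase pathway that holds both factors in the cytoplasm. Of the 26, 9 rose and 5 fell, with a median log2 fold change of 0.10. The called share was 53.8%, against 48.8% of all tested genes. With library totals 5 of the 26 rose and 6 fell and the median was −0.02. Without control replicate 2 the called genes of this list numbered 8 in place of 14. TFEC and MITF, the remaining members of the same transcription factor family, fell: TFEC had 48, 19 and 18 counts in control libraries and 1, 1 and 2 counts in ApoD overexpression libraries (log2 fold change −4.18 ± 0.77), and MITF had 338, 211 and 227 counts in control libraries and 156, 124 and 125 counts in ApoD overexpression libraries (log2 fold change −0.83 ± 0.22). RRAGD, a GTPase that presents TFEB to that kinase, fell by 0.78 ± 0.24, a call that ended when control replicate 2 was left out (adjusted p = 0.0565). The RRAGD and MITF calls were also lost with the abundance trend removed (adjusted p of 0.238 and 0.0746, the highest over their 12 alternatives). MTOR, the kinase, and its partner RPTOR, both chosen after their values were seen, rose by 0.53 ± 0.11 and 0.63 ± 0.11.

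The lysosomal system beyond the 39 members was described with further lists. Of 21 tested V-ATPase subunits 10 rose and 3 fell, with a median of 0.16. The called share was 61.9%, against 48.8% of all tested genes and 55.3% of those averaging at least 1000 counts. Of all tested genes 24.2% rose and 24.6% fell, and of those averaging at least 1000 counts 37.5% and 17.8% did. With library totals 9 of the subunits rose and 5 fell. ATP6V0A2, a subunit of the membrane sector, had the largest rise among them, from 22.6 ± 5.21 to 44.7 ± 2.57 CPM, as mean ± SD of 3 libraries (log2 fold change 0.98, SE 0.15, and edgeR adjusted p = 0.000196). Of 7 tested membrane-sector genes 5 rose, 0 fell and 2 did not pass; ATP6V0B, ATP6V0C and ATP6V0D1, chosen after their values were seen, rose by 0.85 ± 0.11, 0.74 ± 0.11 and 0.69 ± 0.11. Of 12 tested genes of the cytosolic sector 4 rose and 2 fell. Of 2 accessory subunits 1 rose and 1 fell. The cytosolic-sector falls were ATP6V1B1 and ATP6V1C2, isoforms of specialised epithelia such as the kidney. ATP6V1B1 had 233, 336 and 282 counts in control libraries and 14, 14 and 15 counts in ApoD overexpression libraries (log2 fold change −4.18, SE 0.26, and edgeR adjusted p = 6.21e-07), and ATP6V1C2 had 273, 262 and 282 counts in control libraries and 60, 70 and 70 counts in ApoD overexpression libraries (log2 fold change −1.91, SE 0.20, and edgeR adjusted p = 2.02e-05).

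Of 26 further lysosomal membrane proteins 9 rose and 3 fell (median 0.12), against 5 and 6 with library totals, where the median was −0.0022. The called share was 46.2%, against 48.8% of all tested genes. CTNS, which exports cystine, rose from 11.1 ± 1.44 to 20.9 ± 2.29 CPM, as mean ± SD of 3 libraries, and the transporters MFSD12 and SPNS1 rose by 0.68 ± 0.10 and 0.63 ± 0.09. Of 29 further lysosomal hydrolases 5 rose and 6 fell (median −0.07), against 3 and 9 with library totals. Their called share was 37.9%, below that of all tested genes. CTSO, another cysteine cathepsin, had 203, 345 and 319 counts in control libraries and 46, 63 and 54 counts in ApoD overexpression libraries (log2 fold change −2.28, SE 0.26, and edgeR adjusted p = 3.18e-05). SCPEP1, a serine carboxypeptidase, fell from 146 ± 12.4 to 81.2 ± 1.02 CPM, as mean ± SD of 3 libraries, and the sulfatase ARSG fell by 0.80 ± 0.23, a call lost without ApoD overexpression replicate 1 (adjusted p = 0.0537) and with the abundance trend removed (0.148, the highest over its 12 alternatives).

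Without control replicate 2 the count of called genes among further membrane proteins was 6 in place of 12, without control replicate 3 it was also 6, and among further hydrolases it was 7 in place of 11 without control replicate 2. Of 16 genes listed under the sorting of lysosomal enzymes, not all of them sorting factors, 4 rose and 5 fell. Their called share was 56.2%, against 48.8% of all tested genes. The median was 0.03, and −0.09 with library totals or the abundance trend removed. CLN6, a membrane protein of the endoplasmic reticulum needed for export of lysosomal enzymes, rose from 30.6 ± 6.01 to 80.2 ± 10.5 CPM, as mean ± SD of 3 libraries (log2 fold change 1.39, SE 0.14, and edgeR adjusted p = 1.71e-05). SORT1 and SORL1, sorting receptors of the Golgi and endosomes, fell, with log2 fold changes of −1.29 ± 0.12 and −0.83 ± 0.11. M6PR, the small mannose 6-phosphate receptor, which was chosen after its value was seen, rose from 196 ± 11.6 to 319.99 ± 13.3 CPM, as mean ± SD of 3 libraries (log2 fold change 0.71, SE 0.09, and edgeR adjusted p = 5.46e-05).

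Of 8 tested cathepsin inhibitors 3 fell and 0 rose, with a median log2 fold change of −0.65 that was −0.22 once the abundance trend was removed. Their called share was 37.5%, against 48.8% of all tested genes. Under library totals 4 fell and the median was −0.76. The 3 were the clade B serpins SERPINB13, SERPINB3 and SERPINB4, which inhibit cysteine cathepsins or other proteases. SERPINB13 had 1315, 2324 and 2265 counts in control libraries and 242, 93 and 165 counts in ApoD overexpression libraries (log2 fold change −3.46, SE 0.28, and edgeR adjusted p = 3.41e-06). SERPINB3 and SERPINB4 fell, with log2 fold changes of −3.36 ± 0.39 and −3.30 ± 0.53, but these near-identical neighbours can share reads, and both varied among the controls, where SERPINB3 had 412, 1004 and 1311 counts. The cystatins CST3, CSTA and CSTB did not pass, with log2 fold changes of 0.07 ± 0.09, −0.29 ± 0.12 and 0.01 ± 0.10.

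**Figure D5:**
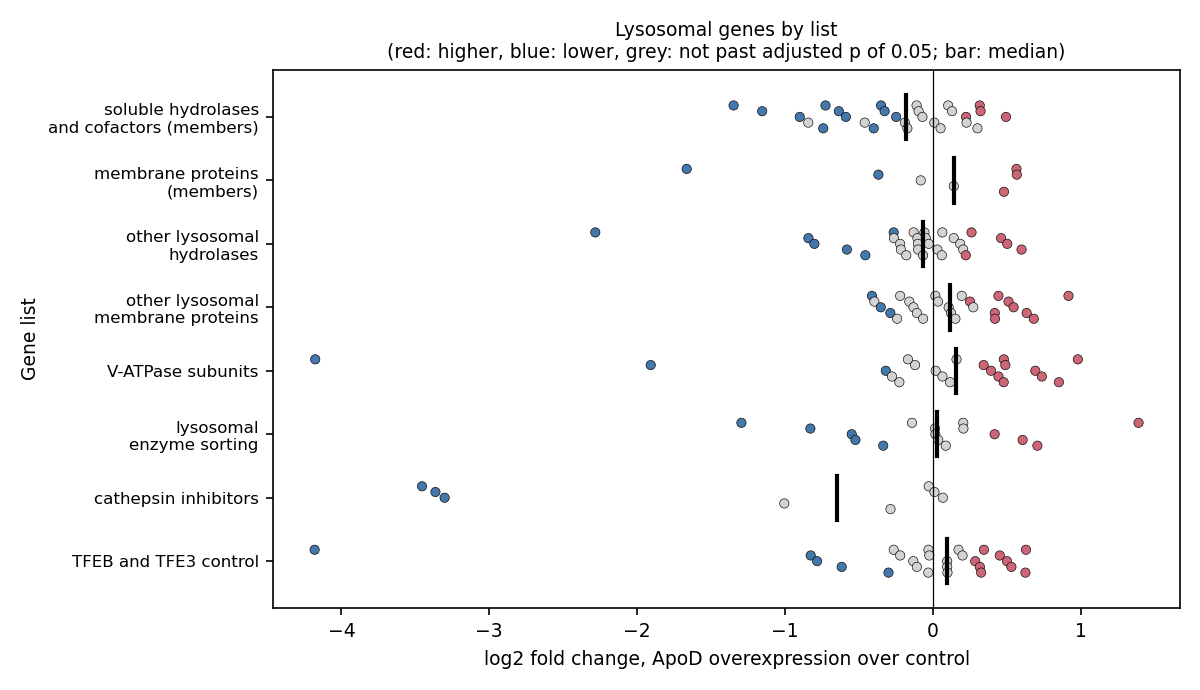
Log2 fold change of each tested gene (x axis, ApoD overexpression over control) in the member classes and in 6 further lists of lysosomal genes (rows); red points rose, blue points fell, grey points did not pass an adjusted p of 0.05, and black bars are medians. Soluble hydrolases and cofactors have a median of −0.18 and membrane proteins 0.14; the latter is −0.06 with the abundance trend removed.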

How the data were processed

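The members and gene lists were chosen with earlier results of these data known. The authors deposited raw read counts (21676 gene symbols, 6 libraries) and FPKM; each deposited FPKM above 0 was the count over its column total and 1 gene length (relative tolerance 1e-06). Aligner, counter, strand setting and build were not given in the sources used here, so pseudogenes, near-identical relatives and overlapping genes may share reads. Per the labels' protocols, library preparation used a SMARTER mRNA-Seq kit.

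Counts were tested with edgeR 4.0.16 in R 4.3.3: TMM scaling, filterByExpr with a minimum count of 10, and the two-sided quasi-likelihood F test of ApoD overexpression against control, with p-values adjusted by Benjamini-Hochberg over 14629 genes and a threshold of 0.05. Standard errors are the absolute log2 fold change over the root of F. CPM are counts per 1000000 of the TMM-scaled library; FPKM compare levels between genes. At 37542568 to 40416964 counts per library, counting error is small for abundant genes; totals of 1 to 3 counts in a group are given as a ratio with a 95% counting interval.

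Named genes were all 39 members, APOD, and up to 3 called genes of the largest change in each of 8 further lists; full values were given for up to 4 called members of each class and for TFEB, TFE3, SQSTM1, LAMP1, LAMP2, CD63 and CTSD. Every other gene given a value was chosen after its value was seen: M6PR, MTOR, RPTOR, CSF1R, ITGAX, EPCAM, KRT5, KRT7, KRT8, KRT18, CST3, CSTA, CSTB, ATP6V0B, ATP6V0C and ATP6V0D1. The alternatives were DESeq2 1.42.0 size factors or its Wald test, library totals, loess offsets (span 0.3) that remove each library's abundance trend, no filter, a mean count of at least 500, the replicate number as a block, limma 3.58.1 on log2(FPKM + 1) or log2(FPKM + 0.1) with at least 1 FPKM in 3 libraries, and leaving out each library. The fits were tested on simulated counts.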

Additional observations from a re-analysis of the deposited data

How the results depend on the processing

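The 15 alternatives kept the direction of all 22 member calls. The count of members that rose, 8, was 5 with library totals and on FPKM with either pseudocount (1 or 0.1), and 4 both after removal of the abundance trend and among genes averaging at least 500 counts. The last of these fits tested 33 members and 19 of the 22 calls, and MCOLN1 was too scarce for it. Leaving out 1 library gave 6 to 8 members that rose and 9 to 14 that fell, in place of 14. The lowest count of falls, 9, came without control replicate 2, where falls among all tested genes numbered 2764. Among all tested genes 3601 fell, but 2367 among the fewer genes (9040) averaging at least 500 counts. With library totals 36.8% of called genes rose, against 49.6%. Of 26 genes that act on TFEB and TFE3 14 were called, but 8 in that abundant set and on FPKM with either pseudocount. MITF, TFEC, RRAGD and ZKSCAN3, called in the main fit, were too scarce for that abundant set. Leaving out 1 library gave 8 to 13 called genes of this list. Over the same 6 fits further membrane proteins gave 6 to 12 called genes and further hydrolases 7 to 12. APOD kept its call in the 14 that tested it.

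Sign changes were seen for members that did not pass the test. With library totals, CTSA, GLB1 and IDS had log2 fold changes of −0.013, −0.11 and −0.064. With the abundance trend removed they had −0.095, −0.14 and −0.028, and PPT1, CD63 and TFEB had −0.063, −0.059 and 0.011. Among genes averaging at least 500 counts GLB1 and IDS had −0.092 and −0.050. On log2(FPKM + 1), CTSA, GLB1 and IDS had −0.012, −0.10 and −0.053, and on log2(FPKM + 0.1) −0.012, −0.11 and −0.062. GLB1 had −0.011 to 0.057 when 1 library was left out and TFEB −0.15 to 0.10. The causes were not tested.

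With the replicate number as a block 7 members rose and 10 fell, and 17 of the 22 calls were kept; those of SGSH, LIPA, TPP1, LAMP2 and TFE3 were lost. Libraries with the same number did not deviate together (correlations of −0.12, −0.01 and −0.04), so the numbers were not taken to pair the samples. The members with the lowest mean counts were CTSH, CTSK, IDUA, LAMP3 and CTSF.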
